A study of Danio rerio with 4 samples.

Results

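Cadherins, catenins and desmosome proteins hold neighbouring cells together, and their transcripts were measured here in zebrafish (Danio rerio) fins, regenerating or uninjured. The genes were chosen by a naming rule, with earlier results of these data known. It took all count table rows whose symbol begins with cdh and a digit, ctnna, ctnnb, ctnnd, dsc2, dsg2, dsp, pkp, jup or evpl. The symbol ppl was also taken, and the endothelial cdh5 was left out. This gave 42 genes of the 32434 in the tables. Another 8 gene IDs whose symbols meet the same rule, those of cdh1 (E-cadherin), CDH18, CDH22, cdh28, cdh29, cdh30, ctnna1 (alpha-E-catenin) and PPL (periplakin), were not analysed here. Fins of wild-type fish of strain EK were cut back to 50% of their length and collected 4 days later, or were taken without injury. Both groups held 2 pools with 10 fins in each, and RNA of whole fins was sequenced as single reads of 50 bases. The labels give neither age nor sex. Whether different fish went into each pool is not stated, so that p-values measure only the spread between these samples, which may be technical.

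Classical cadherins are membrane proteins that bind the same cadherin on the next cell and, inside the cell, bind beta-catenin or plakoglobin, which reach the actin filaments through alpha-catenin, while p120 (delta) catenins hold cadherins at the membrane. Beta-catenin has a separate role as the nuclear effector of Wnt signalling. Desmosomes are the related junctions of epithelia, in which desmogleins and desmocollins are tied by plakoglobin and plakophilins to desmoplakin, a plakin that anchors keratin filaments. The fin is covered by a layered epidermis rich in desmosomes, and a regenerating fin holds in addition a blastema, the growing mesenchyme that replaces bone and connective tissue.

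CDH2, 4 type II cadherin genes and both beta-catenin genes were higher in regenerating fins. Of 11 desmosomal cadherin, plakophilin and plakin genes 8 were lower, and neither plakoglobin gene passed the test. CDH2 rose 8.58-fold, CDH7 6.01-fold, cdh6 4.8-fold, ctnnb2 4.71-fold and CTNNB1 3.46-fold, while pkp3a was 3.26-fold and dsg2.1 2.71-fold lower. Of the 42 genes, 41 passed the filter on low counts, and cdh7b had 0 counts in every library. Among the 41 tested, 10 rose, 17 fell and 14 missed the threshold (a Benjamini-Hochberg adjusted p under 0.05 over all 25594 genes tested, edgeR quasi-likelihood test). The called share of the 41 genes was 65.9%, against 59.6% of all genes tested. In the higher direction the share was 24.4%, against 29.5% of all genes, and in the lower direction 41.5%, against 30.0%. For 14 members the 2 regenerating pools were above both uninjured pools, an order found for 40.3% of all genes, and for 22 they were below, against 41.0%. The groups thus failed to overlap for 36 of 41 members, where 81.3% of all genes did so. The change was at least 2-fold for 9 of the genes that rose and 7 of those that fell, where 15.0% of all genes rose and 16.1% fell by that much. The median log2 fold change of the 41 was -0.22 and that of all genes tested was -0.024. With scaling by total counts alone, which moved the median of all genes by 0.21 on the log2 scale, the split was 14 higher and 14 lower, so that 50.0% of the calls were higher in place of 37.0%. Over all genes the higher share of calls moved likewise, to 61.8% in place of 49.6%, so that the members' share stayed below that of all genes under either scaling. In whole fins, fewer cells of a type and less RNA per cell cannot be told apart.

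The libraries held 34290386 to 48247042 counts, and the members took 0.549% to 0.577% of the counts in regenerating and 0.615% to 0.767% in uninjured fins. The 2 pools of a group were further apart than sampling noise, at 18.5 (regenerating) and 39.2 (uninjured) for the chi-square per degree of freedom. That value takes the expected split of each gene from total counts alone, so differences that scaling between libraries would remove are counted in it. Levels are counts-per-million values (CPM) with library sizes adjusted by trimmed mean of M values (TMM), are not divided by gene length, and are compared between groups within a gene. A count of 0, as for cdh7b, allows up to 3 counts, which is 0.0562 to 0.0881 CPM depending on the library and covers counting error only. Fold changes are regenerating over uninjured fins, given on the log2 scale with the standard error of the fit.

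**Figure D1:**
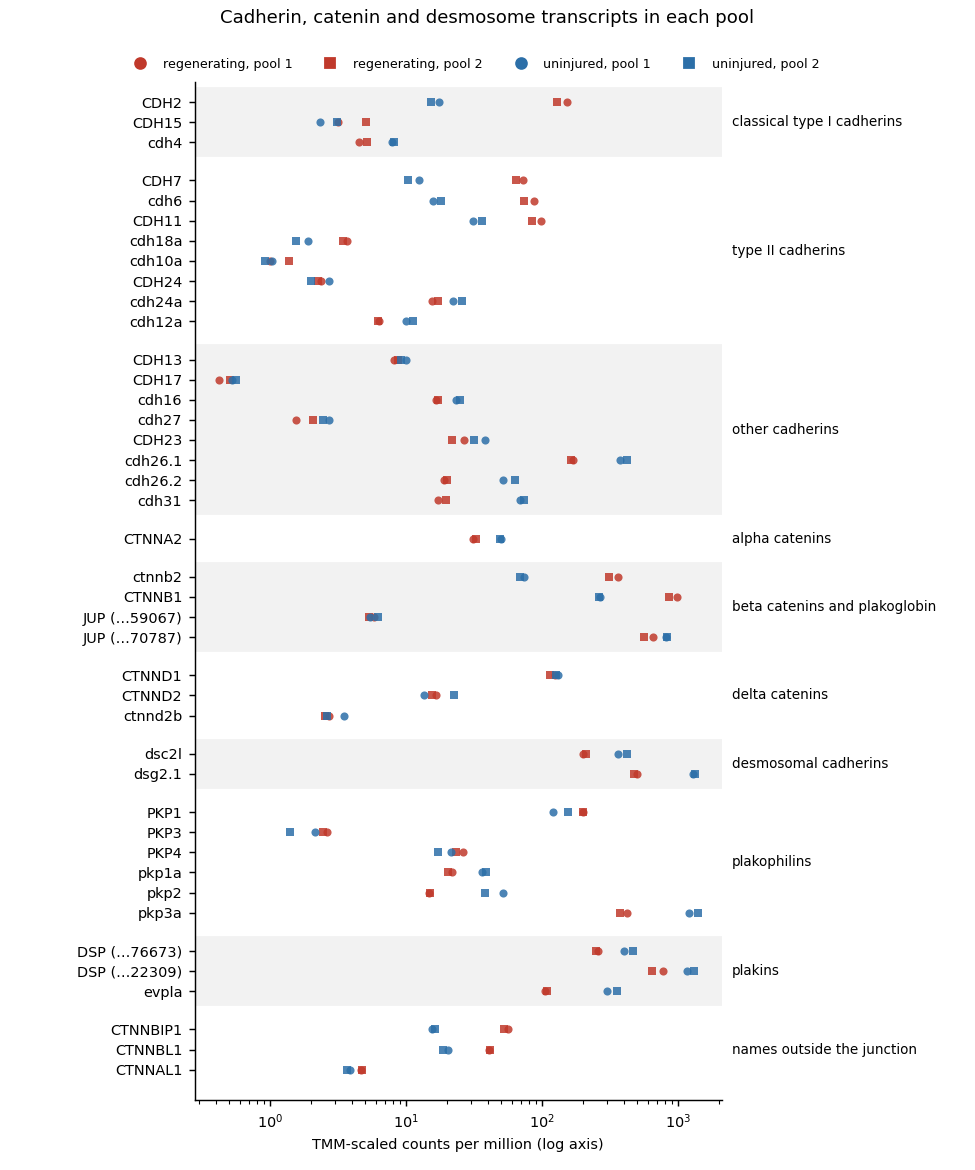
Level of each of the 41 tested genes in each of the 4 pools, in TMM-scaled CPM on a log axis, with 1 row per gene and the genes ordered within their role by fold change. Red marks are regenerating and blue marks uninjured pools, with circles for pool 1 and squares for pool 2. CDH2, CDH7, cdh6, CDH11, CTNNB1 and ctnnb2 have both red marks far to the right of the blue marks. The desmosomal cadherin, plakophilin and plakin genes other than PKP1, PKP3 and PKP4 have them to the left.

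Among the 3 classical type I cadherins in the tables, CDH2 rose, cdh4 fell and CDH15 did not pass. CDH2 (ENSDARG00000018693), the N-cadherin of mesenchyme, nerve and muscle, stood at 153 and 129 CPM in the regenerating pools, against 17.5 and 15.3 CPM in the uninjured pools. The lower regenerating pool lay above the higher uninjured pool by several-fold. The log2 fold change was 3.10 ± 0.15, the largest rise among the 41 genes (adjusted p = 3.10e-06, edgeR quasi-likelihood test), and leaving out any 1 library gave 2.98 to 3.22. The R-cadherin gene cdh4 had 4.52 and 5.19 CPM in regenerating and 7.92 and 8.19 CPM in uninjured pools, and fell by 0.73 ± 0.15 on the log2 scale (edgeR adjusted p = 0.00351). Both groups were tight for cdh4 and did not overlap. CDH15, the M-cadherin of muscle, had 3.16 and 5.10 CPM in regenerating and 2.31 and 3.11 CPM in uninjured pools. The first regenerating pool lay barely above the second uninjured one, and the log2 fold change of 0.61 ± 0.26 did not pass (edgeR adjusted p = 0.0756). It ranged from 0.23 to 0.92 when 1 library was left out, and CDH15 passed with total-count scaling (edgeR adjusted p = 0.0307).

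Of 8 tested type II cadherins 4 were higher, 2 lower and 2 not called, which is 50% higher and 25% lower, against 29.5% and 30.0% of all genes tested. CDH7 (ENSDARG00000023542) had 72.5 and 64.5 CPM in regenerating and 12.4 and 10.3 CPM in uninjured fins. The log2 fold change of CDH7, 2.59 ± 0.15 (edgeR adjusted p = 5.86e-06), was next in size to that of CDH2 among the members. cdh6 (ENSDARG00000014522), the K-cadherin gene, had 88.1 and 74.1 CPM in regenerating and 15.7 and 18.1 CPM in uninjured fins, and rose by 2.26 ± 0.15 (edgeR adjusted p = 1.02e-05). CDH11 (ENSDARG00000021442), known in mammals as the cadherin of osteoblasts and connective tissue cells, stood at 97.7 and 84.0 CPM in regenerating and 30.9 and 36.4 CPM in uninjured fins. The groups were well apart for all 3 genes, and CDH11 rose by 1.43 ± 0.14 (edgeR adjusted p = 7.38e-05). cdh18a also rose, at a low level, with 3.66 and 3.43 CPM in regenerating and 1.89 and 1.56 CPM in uninjured fins (log2 fold change 1.04 ± 0.19, edgeR adjusted p = 0.00201).

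The type II genes that fell did so by less than 2-fold. cdh12a had 6.28 and 6.24 CPM in regenerating and 10.0 and 11.3 CPM in uninjured fins, a fall of 0.77 ± 0.14 on the log2 scale (edgeR adjusted p = 0.00195). cdh24a had 15.4 and 17.3 CPM in regenerating and 22.1 and 25.9 CPM in uninjured fins, with a fall of 0.55 ± 0.14 (edgeR adjusted p = 0.00831). The pools did not overlap for either gene, but the call of cdh24a was lost without regenerating replicate 1 (edgeR adjusted p = 0.0792) and with total-count scaling (edgeR adjusted p = 0.128). CDH24 and cdh10a had overlapping pools and log2 fold changes of -0.020 ± 0.21 and 0.29 ± 0.26. cdh10a lay near 1 CPM in all 4 libraries.

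The names of cdh6, cdh10a, cdh12a and cdh18a stand beside each other in the RefSeq annotation of zebrafish, with 0 protein-coding genes between them. That annotation (assembly GRCz12tu) is of a later build than the count tables and was used for gene order only, matched by symbol. Along this run the log2 fold changes were 2.26, 0.29, -0.77 and 1.04, so that the genes that rose, fell and did not pass were direct neighbours. The regenerating pools lay above the uninjured pools for cdh6 and cdh18a, below them for cdh12a, and overlapped them for cdh10a.

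No cadherin outside types I and II rose. Of 8 such genes, grouped by name, 5 fell and 3 did not pass. Thus 62.5% were lower and 0% higher, against 30.0% and 29.5% of all genes tested. All 8 had both regenerating pools below both uninjured pools, an order found for 41.0% of all genes tested. cdh26.1 (ENSDARG00000078404) had 169 and 164 CPM in regenerating and 379 and 422 CPM in uninjured fins. Its neighbour cdh26.2 (ENSDARG00000087641) had 18.9 and 19.96 CPM in regenerating and 51.3 and 63.3 CPM in uninjured fins. Both fell, by 1.26 ± 0.15 and 1.56 ± 0.14 on the log2 scale (edgeR adjusted p = 1.52e-04 and 4.80e-05), and reads of these adjacent copies may not be fully separated by the authors' counting. cdh31 (ENSDARG00000035796) fell by 1.96 ± 0.13, the largest fall among the 41 genes (edgeR adjusted p = 1.22e-05), with 17.1 and 19.5 CPM in regenerating and 68.6 and 74.02 CPM in uninjured fins. All 4 pools of the 3 genes were far above the floor, and none of the groups overlapped.

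Smaller falls were found for CDH23 and cdh16. CDH23, a long cadherin of the tip links of hair cells, had 26.6 and 21.9 CPM in regenerating and 38.4 and 31.5 CPM in uninjured fins (log2 fold change -0.53 ± 0.15, edgeR adjusted p = 0.0160). cdh16, whose mammalian counterpart is a kidney cadherin, had 16.7 and 17.3 CPM in regenerating and 23.2 and 24.9 CPM in uninjured fins (log2 fold change -0.50 ± 0.12, edgeR adjusted p = 0.00749). The call of CDH23 was lost without regenerating replicate 2 (edgeR adjusted p = 0.129), without uninjured replicate 1 (edgeR adjusted p = 0.0627) and with total-count scaling (edgeR adjusted p = 0.109). That of cdh16 was lost without regenerating replicate 1 (edgeR adjusted p = 0.0668) and with total-count scaling (edgeR adjusted p = 0.160). CDH13, a cadherin that is held by a lipid anchor and lacks the catenin-binding tail, CDH17 and cdh27 had log2 fold changes of -0.17 ± 0.14, -0.22 ± 0.31 and -0.52 ± 0.22 and did not pass.

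The summed level of the 20 cdh genes was 706 and 647 CPM in regenerating and 698 and 761 CPM in uninjured fins, so that the groups overlapped, while the make-up of the sum differed. CDH2, cdh6, CDH7 and CDH11 took 58.2% and 54.4% of the cdh counts in regenerating libraries and 10.97% and 10.5% in uninjured libraries. The share of cdh26.1, cdh26.2 and cdh31 was 29.1% and 31.5% in regenerating and 71.4% and 73.5% in uninjured libraries. These genes were picked for the shares after their values were seen, and a share of counts depends on gene length but not on the scaling between libraries.

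**Figure D2:**
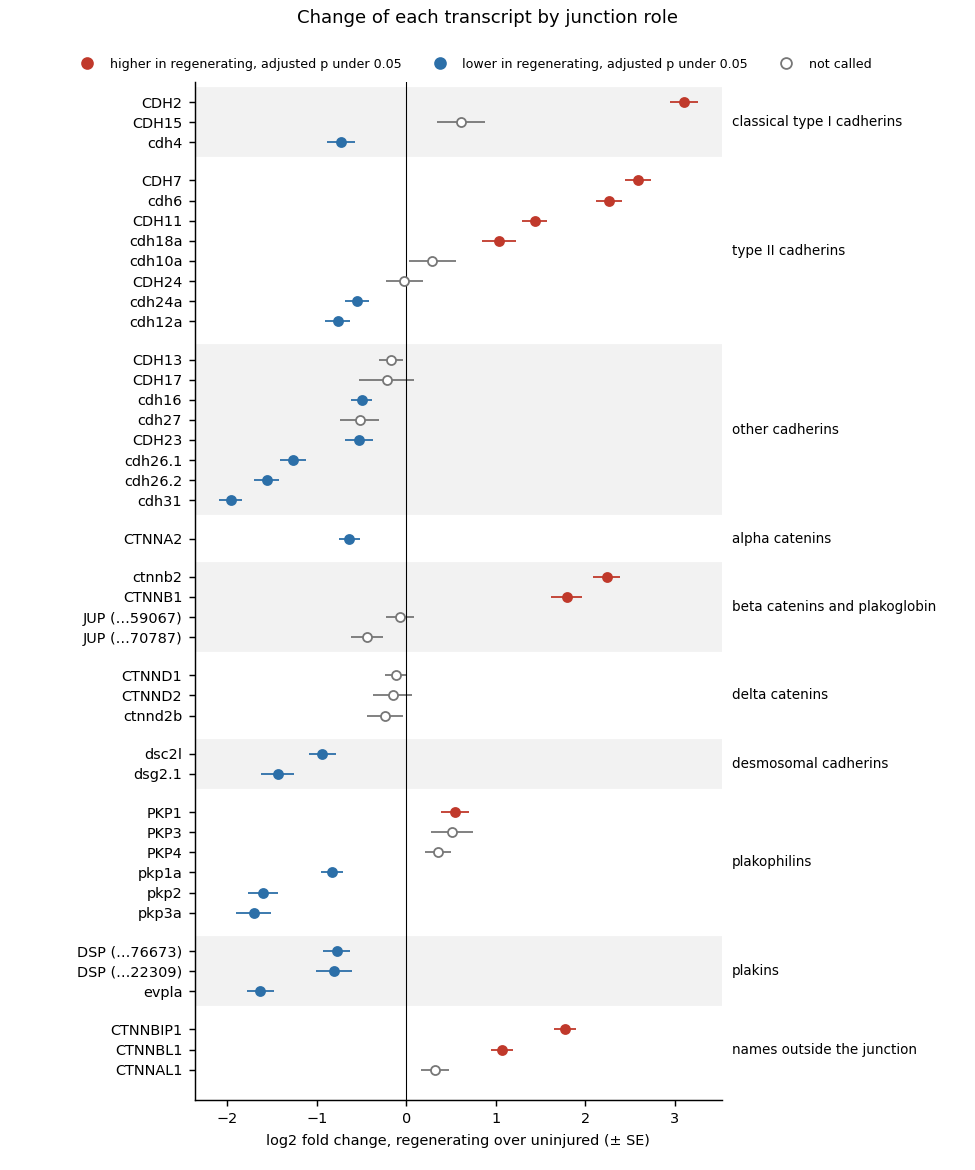
Log2 fold change of the 41 tested genes, regenerating over uninjured fins, with the standard error of the edgeR fit as bars and genes grouped by role. Filled red points are higher and filled blue points lower at an adjusted p under 0.05, and open points did not pass. Type II cadherins span 2.59 to -0.77, all 8 other cadherins lie left of 0, and among the desmosome roles PKP1 is the only filled red point.

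Both beta-catenin genes rose, and neither plakoglobin gene passed the test. CTNNB1 (ENSDARG00000014571), which encodes beta-catenin, had 990.2 and 855 CPM in regenerating and 269 and 264 CPM in uninjured fins, a log2 fold change of 1.79 ± 0.18 (edgeR adjusted p = 6.93e-05). Its paralog ctnnb2 (ENSDARG00000023472) had 360.4 and 310.5 CPM in regenerating and 73.8 and 68.5 CPM in uninjured fins, with a log2 fold change of 2.24 ± 0.15 (edgeR adjusted p = 1.23e-05). Both regenerating pools were more than 3 times as high as either uninjured pool for both genes. As a share of the reads of the pair, ctnnb2 took 26.7% and 26.6% in regenerating and 21.5% and 20.6% in uninjured libraries. The abundant plakoglobin gene (JUP, ENSDARG00000070787), whose product serves desmosomes and adherens junctions alike, had 653 and 561 CPM in regenerating and 819 and 829.8 CPM in uninjured fins. The change of -0.44 ± 0.18 on the log2 scale missed the threshold (edgeR adjusted p = 0.0612), although both regenerating pools lay below both uninjured pools. It was called lower by DESeq2 (Wald test, adjusted p = 0.0109) and under a filter of at least 10 CPM in 2 libraries (edgeR adjusted p = 0.0172). A second JUP gene (ENSDARG00000059067) had 5.78 and 5.34 CPM in regenerating and 5.46 and 6.22 CPM in uninjured fins, with overlapping pools and a log2 fold change of -0.070 ± 0.16.

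Within each library, where no scaling enters, CTNNB1 had 1.52 reads per read of the abundant JUP gene in both regenerating libraries, against 0.329 and 0.318 in the uninjured libraries. CTNNB1 and ctnnb2 together took 67.2% and 67.3% of the reads of the 4 beta-catenin and plakoglobin genes in regenerating libraries, and 29.4% and 28.4% in uninjured libraries. CDH2 had 0.303 and 0.272 reads per read of the desmoglein gene dsg2.1 in regenerating libraries, against 0.0134 and 0.0114 in uninjured libraries. The ratios agreed closely between pools of a group, and the gene pairs were chosen after their values were seen.

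The alpha-catenin gene in the tables fell. CTNNA2, which encodes the alpha-catenin of nerve cells, had 31.3 and 32.7 CPM in regenerating and 50.1 and 49.4 CPM in uninjured fins, and fell by 0.64 ± 0.12 on the log2 scale (edgeR adjusted p = 0.00174). None of the 3 delta-catenin genes passed the test. CTNND1, the p120 gene, had 124 and 115 CPM in regenerating and 132 and 127 CPM in uninjured fins, a log2 fold change of -0.12 ± 0.13 that turned to 0.091 with total-count scaling. The regenerating pools lay just below the uninjured pools. CTNND2, a delta-catenin known from neurons, had 16.7 and 15.6 CPM in regenerating pools, which lay between the 13.6 and 22.4 CPM of the uninjured pools. The spread of the uninjured pools set its result, with a log2 fold change of -0.47 without uninjured replicate 1 (called lower, edgeR adjusted p = 0.0185) and 0.28 without uninjured replicate 2. ctnnd2b had a log2 fold change of -0.24 ± 0.20 with overlapping pools.

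Of the 11 desmosomal cadherin, plakophilin and plakin genes 8 fell, 1 rose and 2 did not pass, so that 72.7% were lower against 30.0% of all genes tested. Their median log2 fold change was -0.83. The plakoglobin genes, counted above with the beta-catenins, are not among the 11, and neither passed the test. Summed over the 11 genes, the level was 2525 and 2322 CPM in regenerating and 4969 and 5553 CPM in uninjured fins, which is 2.17-fold lower in the regenerate on the means.

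Both desmosomal cadherins in the tables were lower. The desmoglein gene dsg2.1 (ENSDARG00000076945) had 503 and 474 CPM in regenerating and 1302 and 1345 CPM in uninjured fins, a log2 fold change of -1.44 ± 0.19 (edgeR adjusted p = 2.71e-04). The desmocollin gene dsc2l (ENSDARG00000039677), its direct neighbour in the RefSeq gene order, had 199.5 and 210.5 CPM in regenerating and 363 and 422 CPM in uninjured fins. It fell by 0.94 ± 0.15 on the log2 scale (edgeR adjusted p = 9.29e-04), and neither gene had overlapping groups. Per read of dsc2l there were 2.52 and 2.25 reads of dsg2.1 in regenerating and 3.59 and 3.19 in uninjured libraries, so that the ratio was lower in both regenerating libraries, a difference given here without a test.

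Plakophilins, which link desmosomal cadherins to desmoplakin, divided. pkp3a (ENSDARG00000051861) had 421 and 378 CPM in regenerating and 1207 and 1399 CPM in uninjured fins, and fell by 1.71 ± 0.19 on the log2 scale (edgeR adjusted p = 1.42e-04). pkp2, the plakophilin also found in heart muscle, had 14.6 and 14.9 CPM in regenerating and 51.9 and 37.8 CPM in uninjured fins, a fall of 1.60 ± 0.17 (edgeR adjusted p = 8.75e-05). The uninjured pools were uneven for pkp2 but both far above the regenerating pools. pkp1a fell by 0.83 ± 0.12, with 21.7 and 20.4 CPM in regenerating and 36.0 and 38.8 CPM in uninjured fins (edgeR adjusted p = 5.20e-04).

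PKP1 (ENSDARG00000052705) was the desmosome gene that rose, with 201 and 199 CPM in regenerating and 120.0 and 155 CPM in uninjured fins (log2 fold change 0.54 ± 0.16, edgeR adjusted p = 0.0166). The regenerating pools were nearly equal and lay above both uninjured pools, which were further apart. The call was lost without regenerating replicate 1 (edgeR adjusted p = 0.0662) and without regenerating replicate 2 (edgeR adjusted p = 0.0596), and the log2 fold change ranged from 0.37 to 0.77 when 1 library was left out. Within each library PKP1 made up 29.2% and 31.2% of all plakophilin counts in regenerating fins and 8.34% and 9.41% in uninjured fins, while pkp3a made up 61.3% and 59.2% in regenerating and 83.9% and 84.8% in uninjured fins. The summed plakophilin level was 688 and 638 CPM in regenerating and 1438 and 1649 CPM in uninjured fins. The share of PKP1 therefore also moves with the fall of pkp3a and does not measure the rise of PKP1 alone. PKP4, a plakophilin relative of the p120 family that is also found at adherens junctions, and PKP3 (ENSDARG00000079438) had log2 fold changes of 0.35 ± 0.15 and 0.51 ± 0.23 and did not pass (edgeR adjusted p = 0.0687 and 0.0895). With 1 library left out, the log2 fold changes ranged from 0.23 to 0.52 for PKP4 and from 0.29 to 0.85 for PKP3. Both were called higher with total-count scaling (edgeR adjusted p = 0.00913 and 0.0231).

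All 3 plakins fell. The envoplakin gene evpla (ENSDARG00000019808), whose product in mammals is a scaffold of the cornified envelope, had 105 and 109 CPM in regenerating and 304 and 358 CPM in uninjured fins, a log2 fold change of -1.63 ± 0.15 (edgeR adjusted p = 5.02e-05). Desmoplakin had 2 genes in the tables under the symbol DSP. The first (ENSDARG00000022309) had 773 and 642 CPM in regenerating and 1160.2 and 1314 CPM in uninjured fins, and fell by 0.81 ± 0.20 (edgeR adjusted p = 0.00857), a call lost without regenerating replicate 2 (edgeR adjusted p = 0.0922). The other (ENSDARG00000076673) had 257 and 249 CPM in regenerating and 402 and 464 CPM in uninjured fins, and fell by 0.78 ± 0.15 (edgeR adjusted p = 0.00265). The paralogs kept a similar proportion, with the first at 75.1% and 72.1% of their joint reads in regenerating and 74.3% and 73.9% in uninjured libraries. Groups did not overlap for any of the 3 plakins.

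**Figure D3:**
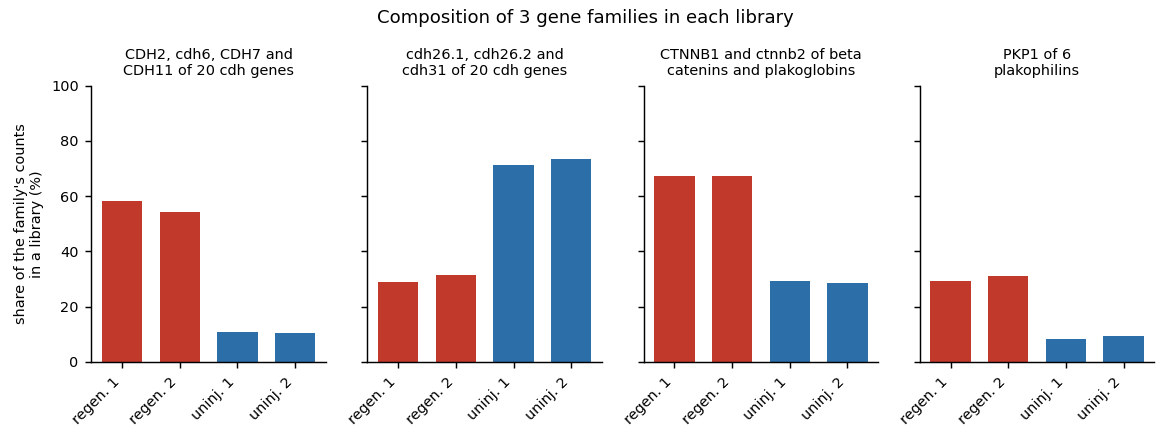
Share of a gene family's counts taken by the named genes in each library, in percent, as bars from 0, with regenerating libraries in red and uninjured libraries in blue. CDH2, cdh6, CDH7 and CDH11 take 54.4% to 58.2% of cdh counts in regenerating and 10.5% to 10.97% in uninjured libraries, CTNNB1 with ctnnb2 takes 67.2% to 67.3% against 28.4% to 29.4%, and PKP1 takes 29.2% to 31.2% against 8.34% to 9.41%. A share also moves with the other genes of its family, and pkp3a, the largest plakophilin, fell.

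The naming rule also takes 3 genes whose products are not junction components. All 3 had both regenerating pools above both uninjured pools, an order found for 40.3% of all genes tested. CTNNBIP1 (ENSDARG00000038954) encodes ICAT, a small protein that blocks the binding of beta-catenin to its nuclear partners. It had 56.4 and 52.7 CPM in regenerating and 15.5 and 16.4 CPM in uninjured fins, a log2 fold change of 1.77 ± 0.12 (edgeR adjusted p = 1.41e-05). CTNNBL1, a protein associated with the spliceosome, had 41.1 and 41.2 CPM in regenerating and 20.5 and 18.8 CPM in uninjured fins (log2 fold change 1.07 ± 0.12, edgeR adjusted p = 1.35e-04). CTNNAL1, the alpha-catulin gene, had a log2 fold change of 0.32 ± 0.16 and did not pass (edgeR adjusted p = 0.115), but passed with total-count scaling (edgeR adjusted p = 0.0430). Without these 3 genes, 8 of 38 tested members rose and 17 fell. These are 21.1% higher and 44.7% lower, against 29.5% and 30.0% of all genes tested.

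Genes that act with the cadherin and catenin proteins were described from 5 lists, of which 99 genes were tested and 46 rose and 27 fell. The shares over all genes tested, the base for reading each list, were 29.5% higher and 30.0% lower. In the list of adherens junction partners, 4 of 15 tested genes rose, 5 fell and 6 missed the threshold (median log2 fold change -0.18), so that 26.7% were higher and 33.3% lower, near the shares of all genes. The alpha-actinin gene ACTN1 rose by 1.49 ± 0.14, while the nectin gene nectin4a, an adhesion receptor of epithelia, fell by 1.56 ± 0.13. The vinculin gene VCL and the plectin gene plecb, whose products tie junctions to actin and keratin filaments, fell by 1.41 ± 0.16 and 1.20 ± 0.20. For these 4 genes the largest edgeR adjusted p was that of plecb, 0.00116. The other plectin gene, pleca, did not pass (log2 fold change -0.24 ± 0.18, edgeR adjusted p = 0.265). Of the 30 symbols in this list, 13 matched no gene.

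Of 15 tested genes of beta-catenin turnover and its nuclear partners 10 rose, 1 fell and 4 missed the threshold (median log2 fold change 0.58). LEF1 and TCF7, DNA-binding partners of beta-catenin, rose by 3.51 ± 0.17 and 3.12 ± 0.15 (edgeR adjusted p = 2.96e-06 and 2.77e-06). LEF1 had 83.4 and 75.7 CPM in regenerating and 7.92 and 5.99 CPM in uninjured fins. The kinase gene GSK3B, whose product marks beta-catenin for destruction, rose by 1.37 ± 0.12, and 1 of 2 GSK3A genes (ENSDARG00000029501) fell by 0.76 ± 0.14 (edgeR adjusted p = 4.64e-05 and 0.00154). The other GSK3A gene (ENSDARG00000015681) rose by 0.56 ± 0.13, a call that was lost when 1 library was left out (largest edgeR adjusted p = 0.0635).

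Of 12 Snail, Zeb and Twist family genes, which encode repressors of E-cadherin in mammals or act beside them, 7 rose, 1 fell and 4 did not pass (median log2 fold change 0.65). twist3 had 113 and 106 CPM in regenerating and 15.6 and 10.98 CPM in uninjured fins (log2 fold change 3.04 ± 0.18, edgeR adjusted p = 7.70e-06). snai1b and twist2 rose by 3.01 ± 0.19 and 1.86 ± 0.13, and snai3 fell by 2.27 ± 0.27. The regenerating pools of snai1b and snai3 stood at 10.6 and 8.77 CPM and at 1.08 and 0.787 CPM, against 1.23 and 1.17 CPM and 5.38 and 3.58 CPM in the uninjured pools.

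Among the other members of the cadherin superfamily (protocadherins, Fat, Dachsous, Celsr and calsyntenin genes), 21 of 39 tested genes rose, 10 fell and 8 missed the threshold (median log2 fold change 0.78). The protocadherin genes PCDH12, PCDH19 and PCDH17 rose by 2.73 ± 0.14, 2.02 ± 0.16 and 1.65 ± 0.14, and the planar polarity gene CELSR1 fell by 1.15 ± 0.12. Some of these are clustered protocadherins whose near-identical parts may share reads. Of 18 keratin filament and periderm genes, whose filaments anchor in desmosomes, 4 rose, 10 fell and 4 did not pass (median -1.23), and krt4, krt5, krt91, icn and cyt1 of this list also count among the epidermal markers. krt1-19d, krt1-c5 and krt92 fell by 1.71 ± 0.16, 1.87 ± 0.19 and 1.70 ± 0.21, and krt18a.1 rose by 2.70 ± 0.18.

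**Figure D4:**
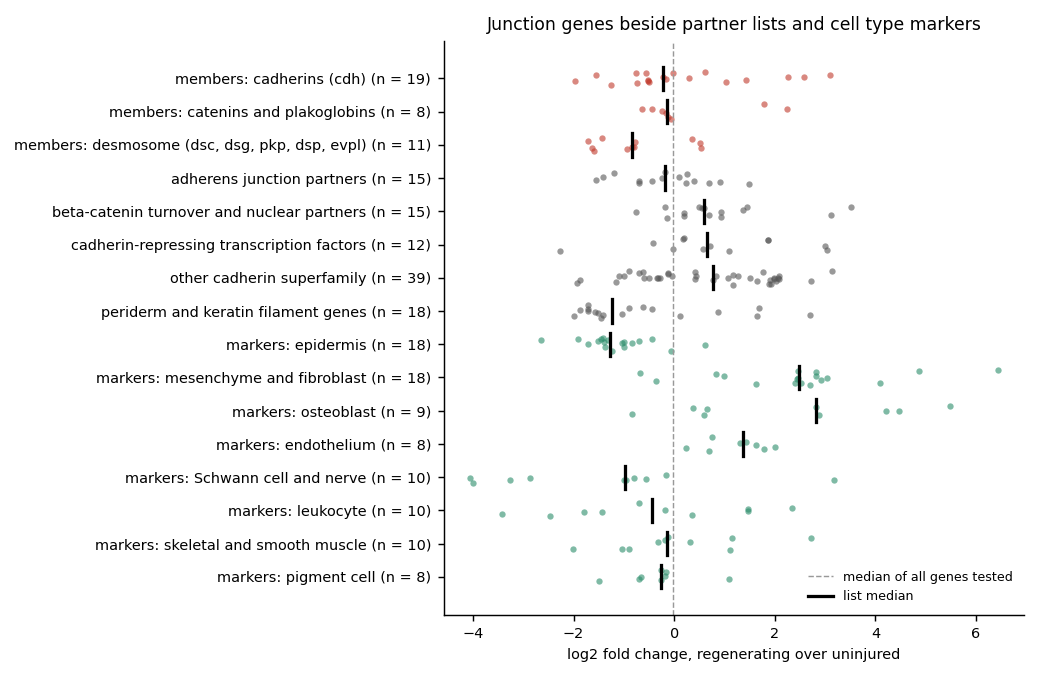
Log2 fold change, regenerating over uninjured fins, of every tested gene in 3 groups of members (red), 5 partner lists (grey) and 8 cell type marker lists (green), with 1 point per gene. Black bars are list medians and the dashed line is the median of all genes tested, -0.024. The desmosome members, here without the plakoglobin genes, have a median of -0.83, with PKP1, PKP3 and PKP4 right of 0. Medians are also negative for epidermal (-1.28), Schwann cell and nerve (-0.98), leukocyte (-0.44), pigment cell (-0.26) and muscle (-0.15) markers. The same holds for the keratin list (-1.23), the adherens junction partners (-0.18) and the other 2 groups of members. Medians of mesenchyme, osteoblast and endothelial markers are 2.49, 2.82 and 1.37.

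Markers of several cell types differed between the groups in the same libraries, where 29.5% of all genes tested were higher and 30.0% lower. Of 18 epidermal markers 14 were lower, 1 was higher and 3 did not pass, with a summed level of 43345 to 49363 CPM in regenerating and 110454 to 139064 CPM in uninjured fins and a median log2 fold change of -1.28. The keratin genes krt5 and krt91 made up most of the epidermal sum. krt5 had 24334 and 20881 CPM in regenerating and 69109 and 54612 CPM in uninjured fins. Its change of -1.45 ± 0.70 on the log2 scale missed the threshold (edgeR adjusted p = 0.108). That of krt91 was -1.72 ± 0.61 (edgeR adjusted p = 0.0390). The epidermal sum therefore mainly describes these keratin genes and not the whole list. The defining epithelial genes epcam and TP63 both fell, with 649 and 708 CPM of epcam in regenerating and 1452 and 1350.3 CPM in uninjured fins. Of 18 mesenchyme and fibroblast markers 16 were higher and 1 lower. Their summed level was 40289 to 48287 CPM in regenerating and 5393 to 5629 CPM in uninjured fins. The type I collagen genes col1a1a, COL1A1 and COL1A2, which all rose, made up most of that sum. Osteoblast markers were higher for 8 of 9 and lower for 1, with 9659 to 11167 CPM in regenerating and 331 to 398 CPM in uninjured fins. Most of the osteoblast sum was COL10A1, with 10705 and 9220 CPM in regenerating and 197 and 247 CPM in uninjured fins. The log2 fold changes of the 9 markers ranged from -0.83 to 5.49, with a median of 2.82. Endothelial markers were higher for 7 of 8, with 229 to 283 CPM in regenerating and 90.0 to 94.7 CPM in uninjured fins. Of 10 tested Schwann cell and nerve markers 1 was higher and 7 lower (85.5 to 90.3 CPM in regenerating, 186 to 193 CPM in uninjured fins). Of 10 leukocyte markers 3 were higher and 5 lower (1105 to 1118 CPM in regenerating, 2487 to 3305 CPM in uninjured fins). Most of the leukocyte sum was cd74a and cd74b, which fell by 1.79 ± 0.24 and 1.43 ± 0.18 on the log2 scale. The sum therefore does not describe the other leukocyte markers, which divided. Of those, marco, SPI1 and an MPEG1 gene (ENSDARG00000055290) rose. In the other direction, lyz and the MPEG1 genes ENSDARG00000043093 and ENSDARG00000078569 fell by 3.41 ± 0.25, 0.70 ± 0.13 and 2.46 ± 0.64 on the log2 scale. The last of these rested largely on uninjured pool 1, with 14.5 and 2.61 CPM in uninjured and 1.36 and 1.74 CPM in regenerating pools. Its log2 fold change ranged from -3.19 to -0.74 when 1 library was left out. LCP1 and CORO1A did not pass. Muscle markers, other than CDH15, were higher for 2 and lower for 2 of 10 tested, and pigment cell markers higher for 1 and lower for 3 of 8. The called shares of these 2 lists were 40% and 50%, below the 59.6% of all genes tested. No marker matched to a gene was at 0 in all 4 libraries. The part of these marker shifts in the changes of the desmosome, cadherin and catenin genes was not tested.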

How the data were processed

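RNA of 4 pools of fins was sequenced as single reads of 50 bases. The authors deposited raw read counts per Ensembl gene, 1 column per pool, taken on accepted hits per the file headers. Build Zv9 and the tools CASAVA, TopHat and edgeR are named per the submitters' processing notes. Not given in the sources used here are the counting program, its annotation and its use of strand, so overlapping, antisense or near-identical genes may share reads. Gene symbols came from an Ensembl symbol table that named 64.0% of the 32434 rows. Library totals were 47858392 and 48247042 counts for regenerating and 43836649 and 34290386 counts for uninjured pools.

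The counts were fitted with edgeR 4.0.16 (quasi-likelihood test, TMM scaling, a minimum count of 10 and total of 15 in the expression filter) on all 4 libraries with group as the only term, and p-values were adjusted by Benjamini-Hochberg over 25594 genes with a threshold of 0.05. The biological coefficient of variation was 0.127. Standard errors were taken from the fold change and its F statistic, and the script was tested on simulated data. R 4.3.3, limma 3.58.1, DESeq2 1.42.0, Python 3.11.15, numpy 2.4.6, pandas 2.3.3 and matplotlib 3.10.9 were used. Alternatives were DESeq2 size factors, total counts, no filter, a filter of 10 CPM, DESeq2, legacy estimation, the replicate number as a block, each library left out, exact symbol matches, and members without names outside the junction.

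The members and the lists of partners and markers were chosen with earlier results of these data known. Genes were named by a rule: in each role the members of highest CPM and the called members of largest change, a few fixed members, and from each partner list up to 3 genes with the lowest adjusted p in the more common direction and 1 in the other. Further members, epcam, TP63 and other single cell type markers, pleca and the second GSK3A gene were named after their values were seen. List symbols matched in any case, or without a paralog suffix.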

Additional observations from a re-analysis of the deposited data

How the results depend on the processing

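Among the 41 tested members, 26 kept their direction and their side of the threshold under all 11 alternatives that tested them. The split of 10 higher and 17 lower ranged from 9 to 12 higher and 15 to 17 lower when 1 library was left out. It was 14 and 14 with total counts, and 10 and 18 with DESeq2. Total-count scaling turned the log2 fold change of 5 members that were not called to positive values, with 0.20 for CDH24, 0.044 for CDH13, 0.13 for JUP (ENSDARG00000059067), 0.091 for CTNND1 and 0.031 for CTNND2. Leaving out 1 library turned the sign for 3 of these, with ranges of -0.19 to 0.22 for CDH24, -0.16 to 0.057 for JUP (ENSDARG00000059067) and -0.47 to 0.28 for CTNND2; CDH24 stood at 0.017 without regenerating replicate 2. In the main fit these 5 members had log2 fold changes between -0.17 and -0.020, and total-count scaling moved the median of all genes up by 0.21. The cause of the turns with 1 library left out was not tested. Among the partner genes, 46 rose, against 28 under the filter of 10 CPM, which tested fewer genes (70 in place of 99), and 38 to 48 with 1 library left out. Without uninjured replicate 1, PKP3, PKP4 and CTNND2 passed the threshold.

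With the replicate number as a block, 12 members rose and 17 fell, with CDH15 and PKP4 added, and 7473 genes rose and 7623 fell in all. Libraries with the same number did not deviate together across 25594 genes (r = -0.031). The labels give only the number, and a correlation from 2 pools per group cannot tell whether same-numbered pools were handled together. With 2 pools per group the standard errors rest on the spread shared between genes, and no difference was detectable at this depth in cdh10a, with 31 to 73 counts per library, or in CDH17, with 19 to 27.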
